A study of Mus musculus with 4 samples.

Results

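The collagen genes were examined in chromatin immunoprecipitation sequencing of phosphorylated CREB in MC3T3-E1 cells, a line of pre-osteoblasts derived from mouse calvaria. Members were the protein-coding genes of the mm9 annotation whose symbol is Col, a number, the letter a and a number, which gave 43 of 22225 gene symbols. Cells received 100 nM forskolin, a plant compound that switches on the enzyme making cAMP, or the DMSO vehicle, each for 1 h. Each treatment had 2 libraries, which the labels call biological replicates, so forskolin replicates 1 and 2 were set against vehicle replicates 1 and 2. All libraries came from a single cell line in growth medium with serum, and no other genotype or differentiation stage was included. The antibody recognises CREB phosphorylated on the serine that protein kinase A modifies. The deposited values were 1 peak list per library, with a position and a score for each peak, and no reads or expression values were used.

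Collagens are triple helices of 3 alpha chains, each chain the product of its own gene. In bone, type I collagen, built from the Col1a1 and Col1a2 chains, makes up most of the organic matrix that osteoblasts lay down and mineralise. The other fibrillar, fibril-associated, basement membrane, microfibrillar, network-forming and transmembrane collagens shape fibrils, bind them to other matrix or surround other tissues. CREB is a transcription factor that binds the cAMP response element (CRE), and phosphorylation lets it recruit co-activators.

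The 4 lists were joined into 28335 regions, of which 275 had their centre within 100 kb of a transcription start site (TSS) of a collagen gene. A region called in both forskolin libraries and neither vehicle library is termed forskolin-only, and the reverse case vehicle-only. Of the 275 regions, 51 were forskolin-only (18.5%), 1 was vehicle-only, 92 were called in all 4 libraries (33.5%) and 131 had another call pattern. The corresponding shares over all regions were 18.3%, 0.441%, 31.5% and 49.7%. For 144 of the 275 the nearest TSS of any protein-coding gene belonged to a collagen gene, and these comprised 30 forskolin-only regions, 1 vehicle-only region, 31 regions of all 4 libraries and 82 others. A total of 17 regions lay within 100 kb of a pair of neighbouring members, among them 7 shared by Col4a1 and Col4a2 and 6 shared by Col6a1 and Col6a2. Distances run from the region centre to the nearest annotated start of any transcript of the gene unless another start is named.

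The regions on which the account turns are printed as the 201 bases around their centre, from the plus strand of mm9 (NCBIM37). They were chosen among the forskolin-only regions and regions of all 4 libraries that have a collagen gene nearest: the one within 10 kb of Col1a1 first, then those with the highest value for the lower of their forskolin ranks. The Col24a1 start was added after its values were seen, because it is a forskolin-only region at a gene's own 5' end. Capitals mark matches on either strand to the full CRE (TGACGTCA), the CRE core (TGACG), which is contained in the full CRE, an AP-1 element (TGAGTCA) or a RUNX element (TGTGGT).
Col1a1 proximal, all 4 libraries, chr11:94790058-94790258: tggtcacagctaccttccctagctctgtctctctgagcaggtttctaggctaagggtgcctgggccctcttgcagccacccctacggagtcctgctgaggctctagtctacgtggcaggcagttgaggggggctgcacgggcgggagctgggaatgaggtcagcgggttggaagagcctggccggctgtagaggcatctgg
Col1a1 distal, all 4 libraries, chr11:94734313-94734513: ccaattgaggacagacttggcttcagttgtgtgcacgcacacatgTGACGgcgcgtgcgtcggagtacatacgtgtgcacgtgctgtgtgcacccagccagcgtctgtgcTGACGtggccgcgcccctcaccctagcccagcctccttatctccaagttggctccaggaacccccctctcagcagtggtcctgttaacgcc
Col1a2 distal, all 4 libraries, chr6:4368950-4369150: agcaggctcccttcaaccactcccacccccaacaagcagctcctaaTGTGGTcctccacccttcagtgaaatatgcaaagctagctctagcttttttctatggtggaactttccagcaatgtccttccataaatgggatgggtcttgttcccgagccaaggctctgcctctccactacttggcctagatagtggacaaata
Col24a1 start, forskolin-only, chr3:144955287-144955487: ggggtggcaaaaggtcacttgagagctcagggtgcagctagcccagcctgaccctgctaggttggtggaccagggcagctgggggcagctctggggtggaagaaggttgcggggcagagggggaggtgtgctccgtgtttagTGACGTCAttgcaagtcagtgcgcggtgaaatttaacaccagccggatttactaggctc
Col27a1, all 4 libraries, chr4:62972720-62972920: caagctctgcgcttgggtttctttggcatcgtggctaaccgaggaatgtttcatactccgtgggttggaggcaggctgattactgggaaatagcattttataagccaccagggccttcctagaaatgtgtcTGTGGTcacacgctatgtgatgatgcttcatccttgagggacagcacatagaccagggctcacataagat
Col4a1 downstream, forskolin-only, chr8:11173400-11173600: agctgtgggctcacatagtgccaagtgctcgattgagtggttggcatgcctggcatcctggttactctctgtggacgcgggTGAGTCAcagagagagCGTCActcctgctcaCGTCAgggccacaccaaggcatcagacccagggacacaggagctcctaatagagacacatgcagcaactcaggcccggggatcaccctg
Col4a2 intron, all 4 libraries, chr8:11376062-11376262: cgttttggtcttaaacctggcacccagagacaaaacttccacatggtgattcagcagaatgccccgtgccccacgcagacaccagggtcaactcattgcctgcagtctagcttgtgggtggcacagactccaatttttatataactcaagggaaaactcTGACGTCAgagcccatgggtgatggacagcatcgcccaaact
Col16a1 upstream, all 4 libraries, chr4:129714302-129714502: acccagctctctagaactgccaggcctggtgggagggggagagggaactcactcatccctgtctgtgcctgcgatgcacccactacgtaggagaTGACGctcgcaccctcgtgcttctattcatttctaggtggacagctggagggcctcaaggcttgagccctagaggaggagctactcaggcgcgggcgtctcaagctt
Col16a1 intron, all 4 libraries, chr4:129752445-129752645: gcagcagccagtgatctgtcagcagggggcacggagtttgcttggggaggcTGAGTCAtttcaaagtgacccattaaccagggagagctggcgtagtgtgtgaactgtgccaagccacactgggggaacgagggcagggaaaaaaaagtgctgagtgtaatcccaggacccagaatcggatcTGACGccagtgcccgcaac
Col15a1 intron, forskolin-only, chr4:47306898-47307098: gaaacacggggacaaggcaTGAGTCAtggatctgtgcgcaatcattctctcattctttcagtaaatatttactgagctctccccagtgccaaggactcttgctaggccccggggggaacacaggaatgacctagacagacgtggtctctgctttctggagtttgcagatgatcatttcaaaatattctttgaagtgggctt
Col15a1 downstream, all 4 libraries, chr4:47329422-47329622: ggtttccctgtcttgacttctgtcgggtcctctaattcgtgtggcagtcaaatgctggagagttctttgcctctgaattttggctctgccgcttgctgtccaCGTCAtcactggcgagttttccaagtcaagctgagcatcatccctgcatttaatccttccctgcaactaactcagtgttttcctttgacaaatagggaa

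The full CRE occurred in the Col24a1 start and the Col4a2 intron. The Col1a1 distal region and the Col4a1 downstream region each held 2 core matches, the Col16a1 and Col15a1 regions of all 4 libraries held 1 core match each, and the Col1a1 proximal sequence held none of the 4 motifs. Among the 30 forskolin-only regions nearest to a collagen gene, 10 held the CRE core in this window (33.3%) and 1 held the full CRE (3.33%), beside 38.6% and 3.59% of all 5187 forskolin-only regions. Among the 31 collagen-nearest regions of all 4 libraries, 10 held the core (32.3%) and 2 the full CRE (6.45%), beside 39.3% and 6.64% of all 8930 such regions. The AP-1 element was in 7 of the 31 (22.6%), beside 6.17% of all regions of that class. Most regions of that class lie at promoters, and over 1 kb from any TSS the shares were 24.1% of 29 collagen-nearest regions and 14.0% of 2946 regions. RUNX matches were in 36.7% of the forskolin-only regions nearest to a collagen gene and in 33.4% of all forskolin-only regions. These are matches of letters and were not tested for binding.

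**Figure D1:**
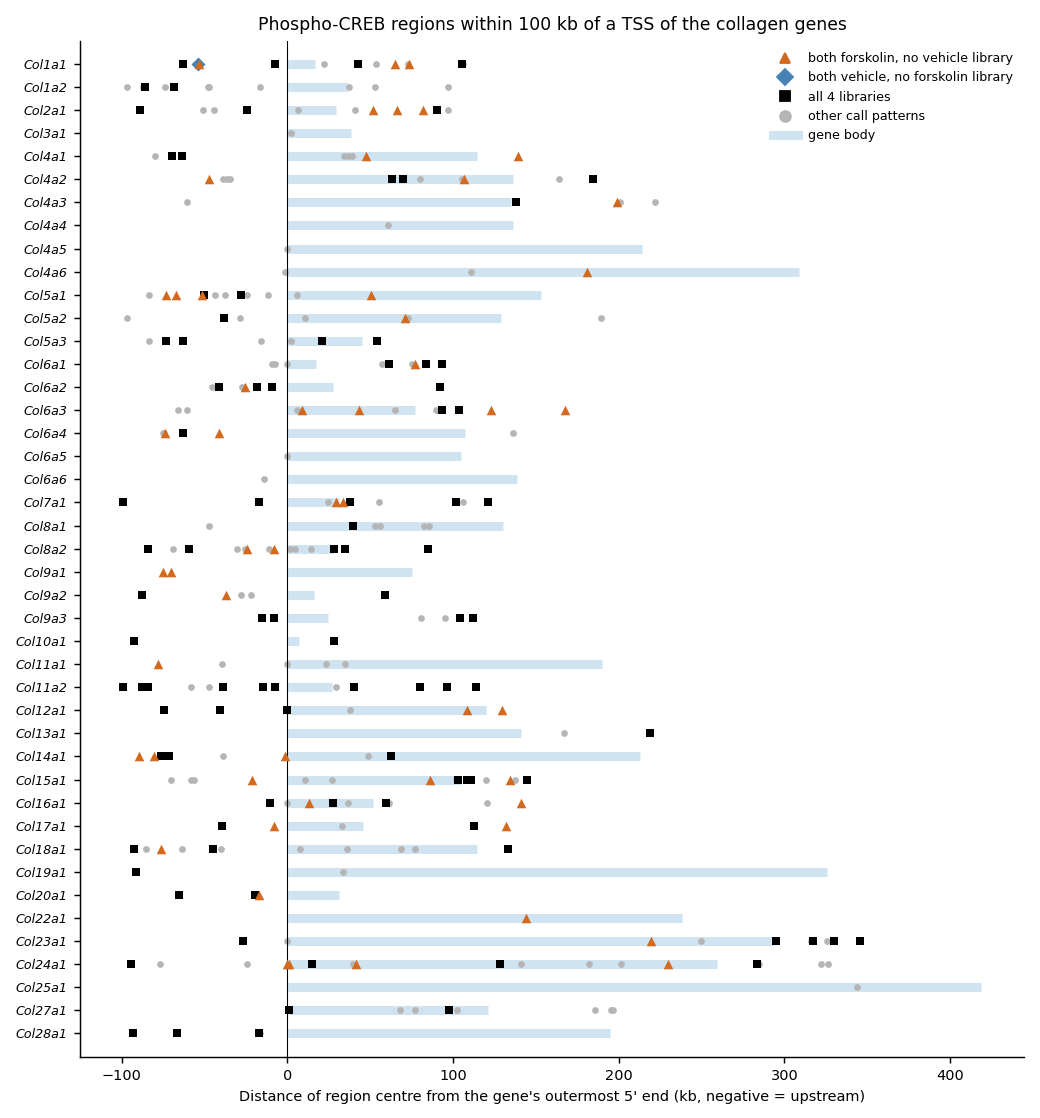
Each row is a collagen gene, with its body as a pale bar, and each mark is a region within 100 kb of one of its TSSs, placed by the distance (kb) of the region centre from the gene's outermost 5' end. Triangles are forskolin-only, the diamond vehicle-only, squares regions of all 4 libraries and grey circles other call patterns. The only vehicle-only region lies beside a forskolin-only one upstream of Col1a1, and regions of all 4 libraries lie within 1 kb of a TSS only at Col12a1 and Col27a1.

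Phospho-CREB was called near the collagen genes mostly away from their 5' ends. Within 1 kb of a TSS, 13 of the 43 members had any region (30.2%), beside 44.5% of all protein-coding genes. Within 10 kb the count was 29 (67.4%), beside 55.2%, and within 100 kb all 43 members had a region, beside 79.5%. Regions shared by all 4 libraries showed the difference in place most plainly: only Col12a1 and Col27a1 had one within 1 kb (4.65%), beside 30.4% of all genes. Within 10 kb 10 members had one (23.3%), beside 37.5%, and within 100 kb 33 members had one (76.7%), beside 67.1%. When distance was taken from the outermost 5' end alone, Col12a1 was the 1 member left within 1 kb (2.33%), beside 28.6%.

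Forskolin-only regions lay within 1 kb of a TSS of Col7a1 and Col24a1, which are 2 of 43 members (4.65%), beside 3.11% of all genes. Within 10 kb there were 11 members (25.6%), beside 8.88%: Col5a2, Col6a3, Col7a1, Col8a2, Col12a1, Col14a1, Col15a1, Col16a1, Col17a1, Col22a1 and Col24a1. Within 100 kb there were 27 (62.8%), beside 39.7%. A vehicle-only region was found within 100 kb of Col1a1 alone (2.33%), beside 2.07% of all genes, and within 10 kb of no member. That count rested on the number of libraries: it was 4 and 2 members when forskolin replicate 1 or 2 was left out, and 2 and 10 members when vehicle replicate 1 or 2 was left out. Collagen genes are long and have several annotated starts: the median member spanned 114 kb with 3 starts, against 15.5 kb and 2 starts over all genes, and the part of gene size in the counts was not tested. From the outermost 5' end alone, 5 members had a forskolin-only region within 10 kb (11.6%), namely Col6a3, Col8a2, Col14a1, Col17a1 and Col24a1, beside 6.91% of all genes.

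The forskolin lists were also longer, with 25566 and 19371 peaks in forskolin replicates 1 and 2, against 14686 and 10180 peaks in vehicle replicates 1 and 2. With each list cut to its 10180 highest scores, a forskolin-only or vehicle-only region may still have lower-scored peaks in the other full lists. Over all regions, the vehicle-only ones went from 125 to 1064 with the cut, and the forskolin-only ones from 5187 to 1551. Forskolin-only regions were then within 10 kb of 4 members (9.30%; Col6a3, Col7a1, Col15a1 and Col27a1), beside 2.55% of all genes. Vehicle-only regions were within 10 kb of 3 members (6.98%; Col1a1, Col6a2 and Col27a1), beside 4.51%. In the full lists the only region within 10 kb of Col1a1, and likewise of Col6a2, was called in all 4 libraries, as was the Col27a1 region 101 bp from a start. Within 100 kb the count was 15 members for forskolin-only (34.9%), beside 15.1%, and 15 members for vehicle-only (34.9%), beside 17.8%. The excess of forskolin-only over vehicle-only members in the full lists was not present within 100 kb between lists of equal length, while both kinds of region were near a larger share of collagen genes than of all genes.

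**Figure D2:**
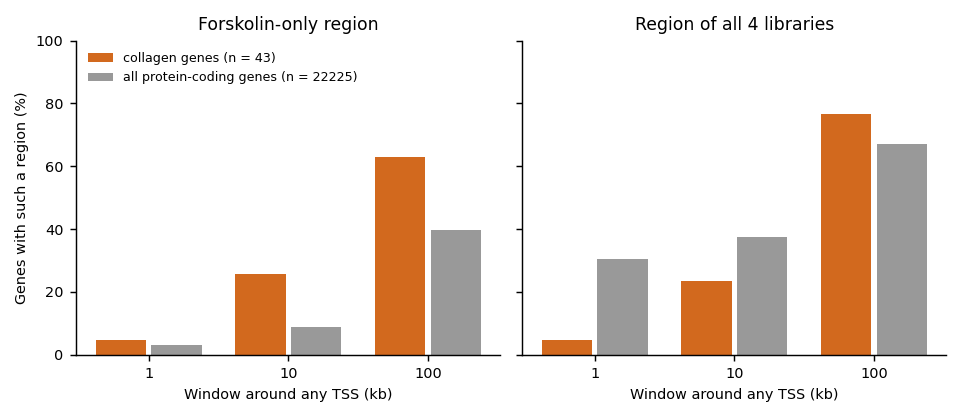
Bars give the percent of genes with a region of the named kind within 1, 10 or 100 kb of any TSS, for the 43 collagen genes (orange) and all 22225 protein-coding genes (grey). Forskolin-only regions were near 25.6% of collagen genes at 10 kb, beside 8.88% of all genes, while regions of all 4 libraries were near 4.65% of collagen genes at 1 kb, beside 30.4%.

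The number of peaks within 100 kb of a collagen TSS was 248 and 194 in forskolin replicates 1 and 2, against 151 and 105 in vehicle replicates 1 and 2. The groups did not overlap, with means of 221 ± 38.2 in forskolin and 128 ± 32.5 in vehicle libraries (SD, n = 2 each) and a ratio of 1.73. An exact two-sided permutation test gave p = 0.333, the smallest value that 2 libraries against 2 allow. Over all peaks the ratio was 1.81, and the collagen peaks were 0.970% and 1.00% of the forskolin lists, against 1.03% and 1.03% of the vehicle lists. Closer in, within 10 kb, there were 49 and 34 peaks in forskolin, against 24 and 11 in vehicle libraries, a ratio of 2.37 (exact permutation p = 0.333). As shares of each list these were 0.192% and 0.176% in forskolin replicates 1 and 2, against 0.163% and 0.108% in vehicle replicates 1 and 2. Both forskolin shares were above both vehicle shares, but that of vehicle replicate 1 lay nearer to them than to that of vehicle replicate 2. The reason for the difference was not tested.

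Type I collagen, the main fibril of bone, had phospho-CREB regions upstream of both of its genes, and neither gene had a region within 1 kb of a TSS. Col1a1, on chromosome 11, had 13 regions within 100 kb, and the closest, 7380 bp upstream and called in every library, is the Col1a1 proximal sequence above. Its score percentiles, that is, its rank among the peaks of its own list from 0 to 100, were 57.2 and 27.2 in forskolin replicates 1 and 2, against 48.2 and 29.4 in vehicle replicates 1 and 2. The groups overlapped, and in both treatments replicate 1 ranked it higher than replicate 2. Because a region shared by all lists ranks higher in a longer list, percentiles were also taken among the regions of all 4 libraries alone, termed the shared scale. On it the Col1a1 proximal region stood at 18.9 and 9.9 in forskolin, against 26.6 and 25.1 in vehicle libraries, lower in both forskolin libraries. The Col1a1 distal region, 63125 bp upstream with 2 CRE cores, ranked at 96.7 and 97.5 in forskolin, against 90.7 and 89.6 in vehicle libraries, so it was near the top of all 4 lists and higher in both forskolin ones, on the shared scale too.

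Between them lay the only vehicle-only region of the family, 54094 bp upstream of Col1a1, with percentiles of 70.4 and 63.6 in vehicle replicates 1 and 2 and no forskolin peak. A forskolin-only region began about 1 kb away, 53075 bp upstream, with percentiles of 62.9 and 62.4 in forskolin replicates 1 and 2 and no vehicle peak. The other Col1a1 forskolin-only regions, at 55956 and 64328 bp downstream of its nearest start, had Ppp1r9b and Samd14 as nearest genes.

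Col1a2, on chromosome 6, had 11 regions within 100 kb, with no forskolin-only one among them. The Col1a2 distal sequence, 85764 bp upstream, ranked at 97.9 and 94.5 in forskolin, against 88.4 and 64.7 in vehicle libraries, with both forskolin values above both vehicle values. A second region of all 4 libraries, 68176 bp upstream, ranked at 87.8 and 55.9 in forskolin, against 87.5 and 80.1 in vehicle libraries, and there the groups overlapped. On the shared scale this Col1a2 region was lower in both forskolin libraries, at 71.0 and 31.6, against 79.8 and 77.7 in vehicle libraries. Within 10 kb Col1a2 had a single region, which only vehicle replicate 1 called (percentile 94.0). It lay 6290 bp from an internal start, past the 3' end of the gene and 37257 bp from its outermost 5' end.

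Among the other fibrillar collagens the pattern differed gene by gene. Col3a1, which forms fibrils with type I collagen in soft tissue, had 1 region within 100 kb, in its intron 1, called in vehicle replicate 1 alone (percentile 55.0). Col2a1, the fibril of cartilage, had a region 24426 bp upstream that ranked at 92.8 and 84.1 in forskolin, against 65.8 and 59.3 in vehicle libraries, with no overlap. A Col2a1 intron region 1308 bp from a start had peaks in forskolin replicates 1 and 2 (93.1 and 82.3) and in vehicle replicate 1 (31.1), with none in vehicle replicate 2. Its 3 forskolin-only regions within 100 kb were each nearer to Vdr, the vitamin D receptor gene, or Tmem106c.

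Col5a1 and Col5a2 encode type V collagen, which sits inside type I fibrils and limits their diameter. Col5a1 had 4 forskolin-only regions within 100 kb, all nearest to it, at 72963, 67496 and 51367 bp upstream and 50311 bp downstream. Their percentiles were 46.3, 23.4, 63.9 and 42.6 in forskolin replicate 1 and 53.3, 5.3, 47.5 and 5.3 in forskolin replicate 2, so 2 of them were close to the bottom of the second list. A Col5a1 intron 1 region 5861 bp from the start was high in forskolin (91.1 and 87.6) and was called in vehicle replicate 1 (72.5) but not in vehicle replicate 2. Col5a2 had a forskolin-only region in intron 6, 9699 bp from an internal start, at percentiles 26.5 and 17.1 in forskolin replicates 1 and 2. A Col5a2 region of all 4 libraries, 38132 bp upstream, ranked at 40.5 and 44.1 in forskolin, against 19.3 and 21.2 in vehicle libraries, without overlap. That order was lost on the shared scale, with 5.7 and 20.5 in forskolin, against 6.5 and 17.6 in vehicle libraries, which overlap. Col5a3 had no forskolin-only region within 100 kb.

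Type XI collagen shares this role in cartilage. Col11a1 had a forskolin-only region 77871 bp upstream that was among the highest ranked, at 92.8 and 69.0 in forskolin replicates 1 and 2, and a region at its start called in replicate 1 of each treatment (40.5 in forskolin, 19.3 in vehicle). Col11a2 had 10 regions of all 4 libraries within 100 kb, the most of any member, and no forskolin-only one. The closest, 7637 bp upstream, lies 12 bp from the start of Rxrb.

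Col24a1 and Col27a1 encode the fibrillar chains of types XXIV and XXVII, and Col24a1 is known as a marker of bone formation. Col24a1 had the most regions of the family within 100 kb, 17, and it was the one gene with a forskolin-only region over its outermost 5' end. That region, centred 49 bp upstream and holding a full CRE, ranked at 58.9 and 27.2 in forskolin replicates 1 and 2 and had no vehicle peak. A second forskolin-only region 911 bp inside ranked at 23.4 and 22.2, and another, 6744 bp from an internal start in intron 53, at 31.0 and 27.2. All of these were in the lower or middle part of the lists. In intron 2, 14891 bp from the start, a Col24a1 region of all 4 libraries with a full CRE ranked at 89.6 and 82.3 in forskolin, against 35.6 and 40.9 in vehicle libraries, far apart and without overlap. Another, 94690 bp before an internal start, ranked at 57.8 and 27.2 in forskolin, against 67.3 and 46.6 in vehicle libraries, with overlap. On the shared scale it was lower in both forskolin libraries, at 19.6 and 9.9, against 49.5 and 41.8 in vehicle libraries.

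Col27a1 had a region of all 4 libraries 101 bp upstream of an annotated start, at 53.8 and 40.3 in forskolin, against 58.3 and 39.0 in vehicle libraries, so the treatments overlapped. This Col27a1 region was lower in both forskolin libraries on the shared scale, at 15.2 and 17.5, against 37.6 and 34.3 in vehicle libraries. The Col27a1 sequence printed above lies in intron 37 and ranked at 93.5 and 88.9 in forskolin, against 85.6 and 75.4 in vehicle libraries. Both forskolin values were higher, although all 4 lists placed it near the top. A further region, 759 bp from an internal start in intron 21, had peaks in both forskolin lists (71.3 and 64.3) and a low one in vehicle replicate 1 (16.8).

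The fibril-associated collagens, which lie on fibril surfaces and link them to other matrix, had a forskolin-only region within 10 kb at 4 of 9 members, beside 8.88% of all genes. Col12a1, expressed in periosteum, tendon and other dense tissue, had a region of all 4 libraries over its start, 52 bp from the outermost 5' end. It ranked at 66.7 and 55.9 in forskolin, against 68.2 and 15.9 in vehicle libraries, so the vehicle libraries disagreed with each other and spanned the forskolin values. A forskolin-only region in Col12a1 intron 58, 2449 bp from an internal start, ranked at 72.0 in forskolin replicate 1 and only 12.4 in replicate 2. Col14a1, a partner of type I fibrils in tendon and skin, had a forskolin-only region 1238 bp upstream of its start, at 36.1 and 17.1, and another 80537 bp upstream, at 65.8 and 58.2. Intron 8 of Col14a1 held a region of all 4 libraries at 91.1 and 81.7 in forskolin, against 46.7 and 24.2 in vehicle libraries, among the widest separations of the family.

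Col16a1 held the highest forskolin ranks among regions nearest to a gene of this class. The upstream one, 10682 bp from the gene start, ranked at 96.9 and 96.7 in forskolin, against 63.5 and 64.7 in vehicle libraries. The intron 42 one, 1742 bp from an internal start and 27461 bp inside the gene, ranked at 92.6 and 87.9 in forskolin, against 51.1 and 21.2 in vehicle libraries. In both cases every forskolin value exceeded every vehicle value. A Col16a1 forskolin-only region in intron 23 was lower, at 34.8 and 27.2. Col22a1, which marks tissue junctions such as that of muscle and tendon, had 1 region within 100 kb, forskolin-only, in intron 38, at the bottom of the first list (0.6 in forskolin replicate 1 and 22.2 in replicate 2). The forskolin-only regions near Col9a1, a cartilage chain, lay 74839 and 69986 bp upstream and were nearest to Fam135a, and that of Col20a1, 17396 bp upstream, was nearest to Arfgap1 (71.0 and 60.4 in forskolin replicates 1 and 2). Col9a2 had a weak one 36880 bp upstream (13.2 and 22.2), nearest to Smap2, and Col9a3 and Col19a1 had none.

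Basement membrane collagen, type IV, is encoded by 3 head-to-head gene pairs. Forskolin-only regions were absent within 10 kb of these 6 genes, beside 8.88% of all genes, and present within 100 kb of 4, beside 39.7%. The Col4a1 downstream sequence, 43301 bp from an internal start and past the 3' end of the gene, was the forskolin-only collagen-nearest region with the highest lower rank, at 94.1 and 93.6 in forskolin replicates 1 and 2 with no vehicle peak. The printed Col4a2 region in intron 4, 28746 bp from an internal start, ranked at 95.2 and 93.2 in forskolin, against 56.2 and 36.9 in vehicle libraries. A second intron 4 region ranked at 84.2 and 80.5 in forskolin, against 49.7 and 48.7 in vehicle libraries. Neither overlapped between treatments, and both also lie within 100 kb of Col4a1. The forskolin-only region in Col4a1 intron 2, shared by both genes, was low in replicate 2 (49.0 and 8.5), and one in Col4a2 intron 20 was low in both replicates (15.0 and 22.2). Col4a6 had a forskolin-only region in intron 3 at 50.7 and 40.3, and that near Col4a3, 70455 bp from its nearest start, was nearest to Tm4sf20 (65.3 and 65.9). Col4a4 and Col4a5 had 1 region each, called in fewer than 3 libraries.

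Type VI collagen forms beaded microfilaments around cells. Col6a3 had 4 forskolin-only regions within 100 kb. The one in intron 1, 4702 bp from an internal start and 9020 bp from the outermost 5' end, ranked at 61.9 and 55.9 in forskolin replicates 1 and 2. One in intron 9 ranked at 48.1 and 27.2, and the other two were nearer to Gm9991. In exon 34 a Col6a3 region was called in both forskolin libraries (70.6 and 76.3) and in vehicle replicate 2 (34.4). Downstream of the gene, a Col6a3 region of all 4 libraries ranked at 73.0 and 84.6 in forskolin, against 45.1 and 53.7 in vehicle libraries, and another at 82.6 and 69.0, against 64.4 and 52.2. The treatments overlapped in neither. On the shared scale the first did overlap, at 42.0 and 71.5 in forskolin, against 23.5 and 49.2 in vehicle libraries. The second stood at 60.2 and 47.6 in forskolin, against 45.5 and 47.6 in vehicle libraries, a mean difference of 7.3 points. It counts as higher only before rounding, since forskolin replicate 2 and vehicle replicate 2 were nearly tied.

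Upstream of Col6a2 lay 3 regions of all 4 libraries, at 9329, 18534 and 41396 bp. The middle one ranked at 62.9 and 62.4 in forskolin, against 16.8 and 21.2 in vehicle libraries, while the first (56.5 and 36.4, against 39.8 and 15.9) and the last (55.9 and 47.5, against 49.7 and 31.8) overlapped. On the shared scale the last was lower in both forskolin libraries, at 17.4 and 23.5, against 28.1 and 27.5 in vehicle libraries. The forskolin-only region 25294 bp upstream of Col6a2, at 37.2 and 53.3, is also the one counted for Col6a1, whose own start had a peak in forskolin replicate 1 only (11.4). Col6a4 had 2 forskolin-only regions, both nearer to Glyctk or Wdr82. Col6a5, Col6a6 and Col28a1 had none.

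Col15a1 and Col18a1, the multiplexins of basement membrane zones, whose C-terminal fragments include endostatin, carried many regions. Col15a1 had 15 within 100 kb, several of them over its 3' part. The printed forskolin-only region in intron 28 ranked at 85.7 and 90.0 in forskolin replicates 1 and 2 with no vehicle peak. In intron 39 a region of all 4 libraries ranked at 92.8 and 84.6 in forskolin, against 31.1 and 40.9 in vehicle libraries. The printed downstream region, 12928 bp from its nearest start, ranked at 87.9 and 86.0 in forskolin, against 31.1 and 68.2 in vehicle libraries. In each of these the forskolin libraries were high and the vehicle libraries lower. A Col15a1 region 15157 bp from that start ranked at 76.7 and 74.2 in forskolin, against 74.9 and 40.9 in vehicle libraries, and overlapped. A weaker Col15a1 forskolin-only region 21583 bp upstream ranked at 40.5 and 31.9. Col18a1 had a region of all 4 libraries 44838 bp upstream, at 76.1 and 47.5 in forskolin, against 43.4 and 24.2 in vehicle libraries. Its forskolin-only region, 76533 bp upstream, was nearest to Gm10941 (61.3 and 70.4).

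Of the remaining classes, Col7a1, the anchoring fibril of skin, had a forskolin-only region in exon 114 near its 3' end, 204 bp before the start of a short transcript and 29097 bp from the gene's outermost 5' end, at 61.9 and 71.8 in forskolin replicates 1 and 2. A Col7a1 forskolin-only region 4382 bp beyond that start was nearest to Ucn2, a urocortin gene, at 79.0 and 62.4. The network-forming Col8a2 had a forskolin-only region 8137 bp upstream, high in forskolin replicate 1 and low in replicate 2 (71.0 and 22.2). Col8a1 had none, and its region of all 4 libraries overlapped between treatments, while on the shared scale it was lower in forskolin, at 21.6 and 14.9, against 49.5 and 27.5 in vehicle libraries. Col10a1, the marker of hypertrophic cartilage, had 2 regions within 100 kb, both called in all 4 libraries and nearest to Tspyl4 or Nt5dc1. Among the transmembrane collagens Col17a1, of epithelial hemidesmosomes, had a forskolin-only region 7823 bp upstream (43.7 and 8.5), and Col23a1 had one in intron 2 (40.5 and 40.3). Col13a1 and Col25a1 had none.

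**Figure D3:**
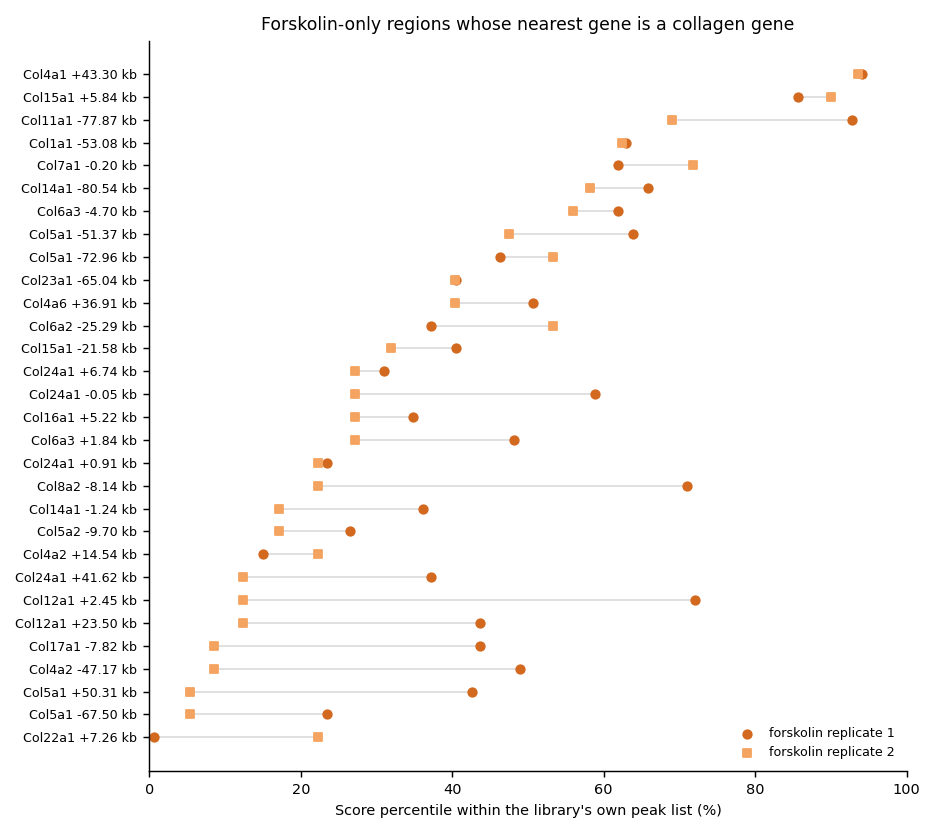
The 30 forskolin-only regions whose nearest gene is a collagen gene, labelled by gene and distance (kb) from its nearest TSS, are placed by score percentile within the list of forskolin replicate 1 (circles) and of forskolin replicate 2 (squares). Regions near Col4a1, Col15a1 and Col11a1 lead, and the medians are 45.0 and 27.2.

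Across these 30 regions the median percentile was 45.0 in forskolin replicate 1 and 27.2 in forskolin replicate 2, beside 44.6 and 31.9 over all 5187 forskolin-only regions. Their place was within an intron of the collagen gene in 14 cases, outside all coding transcripts in 13, in an exon of the gene in 1 and inside another gene in 2. The median distance to the TSS was 18.1 kb, beside 19.4 kb over all forskolin-only regions. For the 31 regions of all 4 libraries it was 24.4 kb, beside 0.141 kb over all 8930 regions, and 2 of the 31 lay within 1 kb (6.45%), beside 67.0%.

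Ranks of the regions called in all 4 libraries were then compared between treatments. Both forskolin percentiles exceeded both vehicle percentiles in 39 of the 92 regions within 100 kb of a collagen TSS (42.4%), beside 44.6% of all regions of that class, and both were lower in 2 (2.17%), beside 2.51%. The count of 39 became 41 or 66 when forskolin replicate 1 or 2 was left out and 70 or 62 when vehicle replicate 1 or 2 was left out, since fewer libraries make the rule easier to meet. Among the 31 with a collagen gene nearest, both were higher in 18 (58.1%) and lower in none. For the 29 of these over 1 kb from any TSS the share was 62.1%, beside 59.6% of all such distal regions, and the median difference in mean percentile, forskolin minus vehicle, was 19.7, beside 18.1 points. On the shared scale both forskolin values were higher in 23 of the 92 (25.0%), beside 18.4%, and lower in 32 (34.8%), beside 31.3%. Of the 31 collagen-nearest regions, 16 were higher (51.6%), the near tie at Col6a3 included, and 8 were lower (25.8%) on that scale. Those lower were 1 region each near Col1a1, Col1a2, Col5a3, Col6a2, Col8a1, Col14a1, Col24a1 and Col27a1, and all 8 overlapped by whole-list percentile. Of the 29 distal ones, 16 were higher (55.2%), beside 39.1%, and 7 were lower (24.1%), beside 18.5%.

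**Figure D4:**
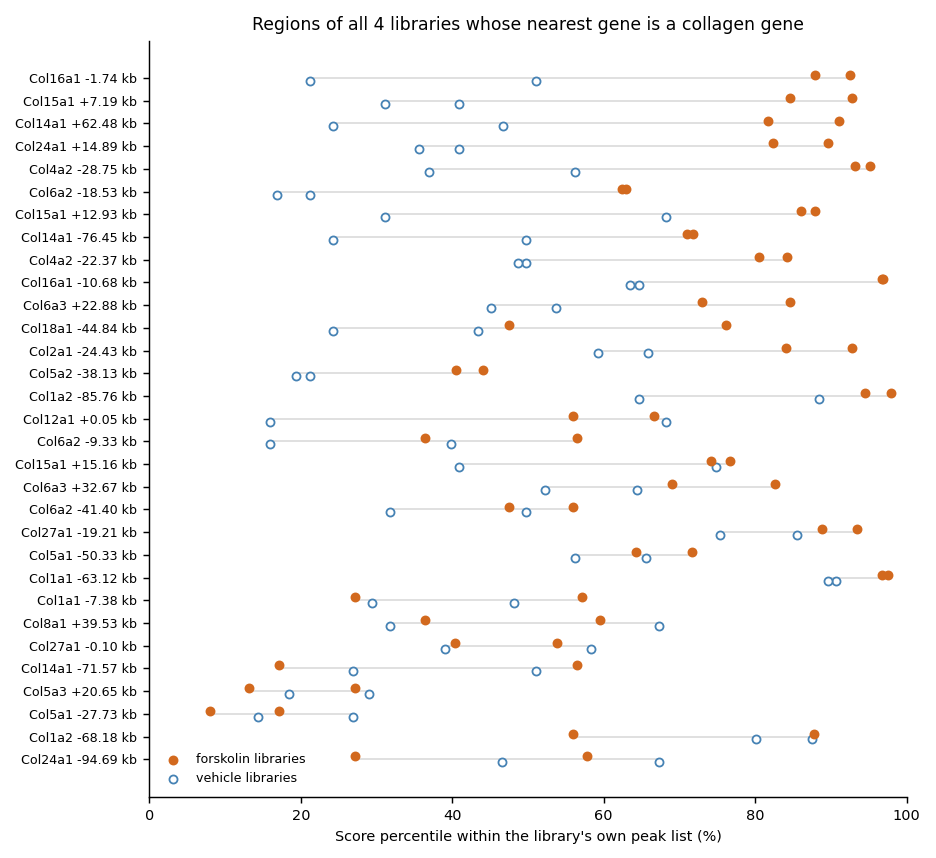
The 31 regions of all 4 libraries whose nearest gene is a collagen gene, labelled by gene and distance (kb) from its nearest TSS, are placed by score percentile in the 2 forskolin libraries (filled) and the 2 vehicle libraries (open), ordered by the difference in mean. In 18 regions both forskolin values lie above both vehicle values (16 regions on the shared scale), with Col16a1, Col15a1, Col14a1, Col24a1 and Col4a2 at the top.

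By structural class, forskolin-only regions within 100 kb were near 6 of 11 fibrillar, 7 of 9 fibril-associated, 4 of 6 basement membrane, 4 of 7 beaded filament and related, 1 of 3 hexagonal network, 2 of 4 transmembrane, 2 of 2 multiplexin genes and the 1 anchoring fibril gene, beside 39.7% of all genes. The fibrillar genes held 61 of the 144 collagen-nearest regions, with 11 forskolin-only and 13 of all 4 libraries. Any region, calls in a single library included, lay within 10 kb of all 11 fibrillar genes, beside 55.2% of all genes. At Col1a2, Col3a1 and Col5a3 the only such region was called in a single library. Any region lay within 1 kb of 3 of the 11, beside 44.5%. Regions of all 4 libraries lay within 10 kb of 3 of the 11, beside 37.5%.

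Genes that modify, secrete, bind or sense collagen were counted in the same way, with regions of all 4 libraries within 1 kb set beside the 30.4% of all genes and forskolin-only regions within 10 kb beside the 8.88%. Of 18 annotated genes for modification and folding, 8 carried such a promoter region, among them P4hb, the beta subunit of prolyl 4-hydroxylase, whose region 12 bp from the start ranked at 95.7 and 96.2 in forskolin, against 95.7 and 93.5 in vehicle libraries. Forskolin-only regions lay within 10 kb of 4 of the 18, P4ha3, P4hb, Plod2 and Tmem38b. Those of P4hb (29.5 and 12.4) and Tmem38b (9.7 and 17.1) ranked low in forskolin replicates 1 and 2. P4ha3, a prolyl 4-hydroxylase alpha subunit, had 3, the highest ranked at 94.1 and 91.4 in forskolin replicates 1 and 2, in intron 5, and the lysyl hydroxylase gene Plod2 had 2, at 81.4 and 74.2 and at 60.1 and 64.3. Of 17 genes for secretion, processing and crosslinking, 5 carried a promoter region of all 4 libraries, and forskolin-only regions lay within 10 kb of 2: Creb3l1, which encodes the OASIS factor required for Col1a1 expression in bone, and Tgm2, a transglutaminase. Among 10 collagen-binding matrix genes these counts were 1 and 2, with forskolin-only regions at Fmod and Sparc, and among 10 receptors they were 3 and 3, with forskolin-only regions at Itga11, Ddr1 and Ddr2.

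The labelled cell type could be examined only through calls near marker genes, which are not expression. Any region, calls in a single library included, lay within 10 kb of all 8 osteoblast markers listed, beside 55.2% of all genes. These include Col1a1 and also Col1a2, whose only such region lay past the gene's 3' end and was called in vehicle replicate 1 alone. Regions of all 4 libraries lay within 1 kb of 0 of the 8, beside 30.4% of all genes, and within 10 kb of 3 (Alpl, Spp1 and Col1a1), beside 37.5%. Forskolin-only regions lay within 10 kb of Runx2, Sp7 and Alpl, beside 8.88%. Any region lay as close to 5 of 8 chondrocyte, 1 of 5 skeletal muscle and 1 of 5 adipocyte markers, with forskolin-only regions near Sox9, Myh3 and Adipoq.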

How the data were processed

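Per the labels, phospho-CREB chromatin of MC3T3-E1 cells was sequenced after 1 h of 100 nM forskolin or DMSO. The authors deposited 1 peak list per library. Column 5 is the authors' deposited score, whose scale is not stated, so it was used solely for mid-rank percentiles of peaks in their own list. Bowtie, HOMER and mm9 are named in the submitters' processing notes. Tool versions, calling thresholds and depths were not given in the sources used here, and the number of reads limits what could be called. The input library was not used here.

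Peaks sharing at least 1 bp were merged with Python 3.11.15 and numpy 2.4.6, classified by calls over the 4 libraries, and measured from their centre to GENCODE M1 starts on NCBIM37, the assembly of mm9. No region passed a chromosome end. Where a region lies was read from protein-coding transcripts. Merging was tested on simulated peaks. Counts of collagen genes were set beside all protein-coding genes, and peak numbers compared by exact permutation (scipy 1.17.1). No test was run per region.

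Genes were described in full if they were Col1a1, Col1a2, Col2a1, Col3a1 or Col10a1, had a forskolin-only or vehicle-only region within 10 kb or a region of all 4 libraries within 1 kb, or were among the 10 next by forskolin rank, which gave 27 genes. Members and lists were chosen with earlier results of these data known. The labels give shared replicate numbers but no shared batch, so libraries were not treated as pairs. Alternatives were other merging, distance and list-length rules and leaving out each library.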

Additional observations from a re-analysis of the deposited data

How the results depend on the processing

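The count of 11 collagen genes with a forskolin-only region within 10 kb was 5 with the top 50% of each list, 4 with lists of equal length and 5 from the outermost 5' end, and 11 to 16 without 1 library. The 27 genes within 100 kb became 15 with equal lists, 19 with the top 50% and 22 from the outermost 5' end. They were 19 when only the nearest gene counted, and 27 to 35 without 1 library. The 2 genes with a region of all 4 libraries within 1 kb became 0 with the top 50%, 1 with equal lists and 1 from the outermost 5' end, and 2 to 3 without 1 library. The 33 genes within 100 kb became 17 when only the nearest gene counted, and stayed 33 without any 1 library. The 1 gene with a vehicle-only region became 15 with equal lists and 2 with an overlap of 50% of the shorter peak, and 2 to 10 without 1 library, the highest without vehicle replicate 2. The 39 regions ranked higher in both forskolin lists became 23 with percentiles among regions of all 4 libraries, and 41 to 70 with 1 library left out. The excess of 93 peaks in forskolin over vehicle libraries was 66 to 120 without 1 library. It became -0.0440 percentage points as a percent of each list's own peaks, which were more numerous in the forskolin lists. With a replicate block the differences were 97 and 89 peaks, with a mean of 93, and the exact sign-flip test cannot go below p = 0.50 with 2 pairs. Taking starts of protein-coding transcripts only, chosen after seeing the data, gave 9 genes with a forskolin-only region within 10 kb. The cause of the shifts was not tested. With 2 libraries per treatment, unknown read depth and scores of unstated scale, a missing peak means that none was called, not that the factor was absent.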
